A study of Homo sapiens with 6 samples.

Results

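The genes described here are the 5 NF-κB subunits NFKB1, NFKB2, REL, RELA and RELB, together with 5 genes whose products hold the pathway back or edit its ubiquitin chains, namely NFKBIA, NFKBIB, NFKBIE, TNFAIP3 and BIRC3. They were chosen by gene symbol, as the 10 rows of these names among the 25545 genes of the deposited expression table. All 10 reached a mean of 1 TPM over the libraries, the minimum for the test, and so were among the 10721 genes tested. TPM is a transcript level scaled by transcript length and by library. The libraries came from BT-549, an established triple-negative breast cancer (TNBC) line grown in RPMI1640 with serum and insulin. RNA was sequenced 48 h after transfection with a control siRNA (CsiRNA, 3 libraries) or an siRNA against the long noncoding RNA NEAT1 (NEAT1siRNA, 3 libraries). The paper names the library kit as TruSeq Stranded mRNA, yet 4 short RNAs held 64.4 to 68.1% of all TPM. How far poly(A) RNA was selected was not tested. The sample titles carry a "tet-" prefix, the meaning of which is not given for these samples, and neither the siRNA sequence nor a second siRNA was analysed here. All values therefore come from 1 cell line. The labels describe cultures in triplicate, so the p-values concern the spread between these libraries. In limma the variance of each gene is drawn towards that of other genes of like level, so they do not rest on its own spread alone.

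NF-κB transcription factors are dimers built from the subunits. RELA, REL and RELB carry a transactivation domain, whereas NFKB1 and NFKB2 encode the precursors p105 and p100, which are processed to the DNA-binding proteins p50 and p52. In the canonical arm, IκB proteins (IκBα from NFKBIA, IκBβ from NFKBIB and IκBε from NFKBIE) keep dimers in the cytoplasm until the IKK complex marks them for degradation. In the noncanonical arm, p100 holds RELB until it is processed to p52. Several of these genes are themselves activated by NF-κB through κB elements near their start sites, which makes NFKBIA and TNFAIP3 textbook feedback inhibitors. In breast cancer, active NF-κB is best known from triple-negative and other basal-type cells, where it drives cytokine and survival genes.

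The promoters of these genes hold letters of the kind that NF-κB dimers bind. Windows of 300 bases, from 250 before to 50 after each annotated start (RefSeq, GRCh38.p14), were found for 8 of the 10 genes, with RELB and NFKBIE not matched. These windows were searched on both strands for the κB consensus motif, and overlapping matches were counted separately. A match was present for 7 of the 8 genes, with RELA as the exception, compared with 13.3% of 27305 genes and 11.3% of 35116 windows in the whole RefSeq table. By window, 8 of the 13 windows of the 8 genes had a match. The stretches around the matches are shown because the genes that fell (NFKB1 and NFKB2) and genes that did not pass the test (REL, NFKBIA, NFKBIB, TNFAIP3 and BIRC3) both carry them. Those of the genes that did not pass were added after their values were seen. Further matches in window 3 of NFKB2 (176 bases upstream), in BIRC3 (135 bases upstream) and in NFKBIB (38 bases downstream) are not shown. Each stretch is written 5′ to 3′ on the strand of its gene, with the match in capitals.
NFKB1: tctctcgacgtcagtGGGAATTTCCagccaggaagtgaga
NFKB2, window 2: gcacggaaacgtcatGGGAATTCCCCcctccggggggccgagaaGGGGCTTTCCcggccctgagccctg
NFKB2, window 3: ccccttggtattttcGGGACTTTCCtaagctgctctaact
REL: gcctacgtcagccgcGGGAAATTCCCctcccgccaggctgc
NFKBIA: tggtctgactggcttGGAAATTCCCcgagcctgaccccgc
NFKBIB: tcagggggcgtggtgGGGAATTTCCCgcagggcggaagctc
TNFAIP3: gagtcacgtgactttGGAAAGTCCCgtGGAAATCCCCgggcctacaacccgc
BIRC3: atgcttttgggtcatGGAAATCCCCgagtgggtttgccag

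The NFKB1 stretch lies at chr4:102501295-102501334 on the plus strand, and its match begins 49 bases upstream of the annotated start. NFKB2 has 3 annotated windows. In window 2, the stretch at chr10:102394456-102394524 (plus strand) holds overlapping matches and a separate one, the first of which begins 107 bases upstream of that start. In window 3, the stretch at chr10:102395669-102395708 (plus strand) holds a match that begins 21 bases upstream. The REL stretch is at chr2:60881512-60881552 (plus strand, 47 bases upstream), and the NFKBIA stretch is at chr14:35404806-35404845 (minus strand, 81 bases upstream). The NFKBIB stretch is at chr19:38899926-38899966 (plus strand, 28 bases upstream). The TNFAIP3 stretch is at chr6:137867177-137867228 (plus strand) with matches beginning 67 and 55 bases upstream, and the BIRC3 stretch is at chr11:102317270-102317309 (plus strand, 199 bases upstream). A match of letters is a description of the window. Binding at these positions was not measured in these libraries.

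The target of the siRNA was measured first. NEAT1 (chr11:65422774-65445540, plus strand) was at 13.4, 7.68 and 10.8 TPM with CsiRNA and at 4.36, 2.96 and 2.73 TPM with NEAT1siRNA. No library of either group reached into the other, and 31.5% of the control mean remained (log2 fold change -1.41 ± 0.14, SE, adjusted p = 1.21e-07 by limma). Fold changes here and below are differences in log2(TPM + 1), which understates the change of low genes, and p-values are adjusted over all 10721 genes (Benjamini-Hochberg), with 0.05 as the threshold. Reads recovered from the deposited tables came to 15787709 to 20343073 per library. The mesenchymal marker VIM was at 859 to 1112 TPM, and ESR1 was at 0 in all 6 libraries. Of the 7 epithelial and luminal markers, 2 were above 1 TPM, ERBB2 at 5.76 to 6.36 TPM and KRT18 at 1.04 to 2.07 TPM, and the 5 others, ESR1, PGR, EPCAM, CDH1 and KRT8, were at or near 0. Of 5 leukocyte markers, CD68 alone was above 1 TPM, and CD3E was at 0 in all 6 libraries. The mesenchymal markers FN1 and CDH2 were lower with NEAT1siRNA (adjusted p = 0.0012 and 0.0186), and the 4 mesenchymal markers summed to 1150 to 1335 TPM with CsiRNA and 1005 to 1203 TPM with NEAT1siRNA; the part of this in the results below was not tested. In bulk RNA, fewer cells of one state and less RNA per cell cannot be told apart.

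Of the 10 genes, 3 were lower with NEAT1siRNA past the threshold, 0 were higher and 7 were not called. The 3 that fell were the subunits NFKB2, NFKB1 and RELB, all by less than a halving. None of the inhibitors or ubiquitin enzymes passed. Over all genes tested, 8.98% were called lower and 4.99% higher. At an unadjusted p under 0.05 from limma, 5 of the 10 were lower and 0 higher, compared with 18.2% and 9.22% of all genes tested. With voom on the recovered reads, 5 of the 10 were called lower (NFKB1, NFKB2, RELB, TNFAIP3 and BIRC3) and 0 higher, compared with 11.8% and 11.6% of all genes tested. All NEAT1siRNA libraries lay below all CsiRNA libraries for 5 of the 10 (NFKB1, NFKB2, RELB, TNFAIP3 and BIRC3) and above them for 0, compared with 19.3% and 11.0% of all genes tested. The 10 log2 fold changes had a median of -0.23, against -0.04 over all genes tested, and 9 of the 10 values were negative, as were 6507 of the 10721.

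**Figure D1:**
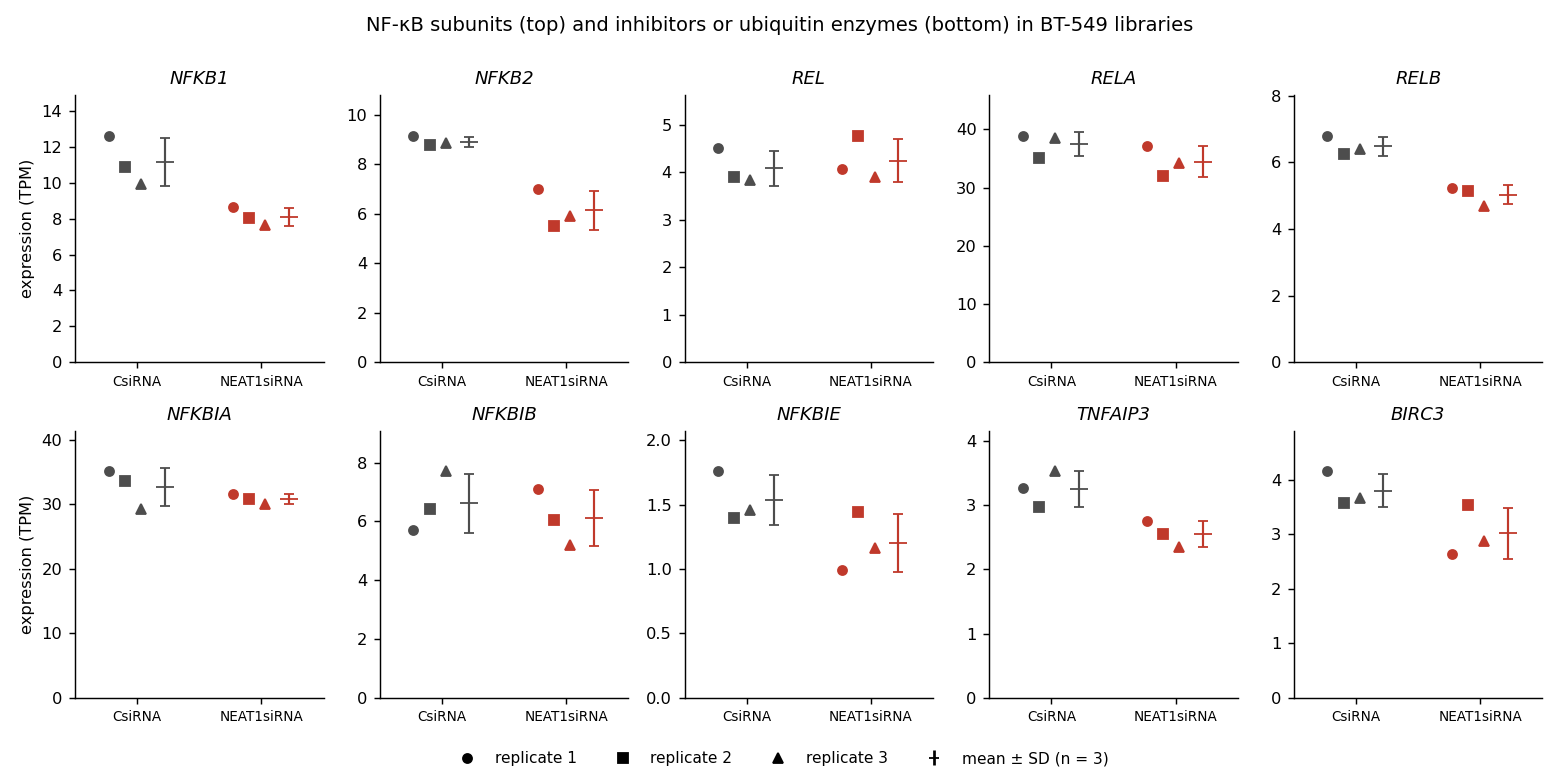
Expression in TPM (vertical axes, each from 0) of the 10 genes in the 3 CsiRNA libraries (grey) and the 3 NEAT1siRNA libraries (red), with symbols for replicates 1 to 3 and the mean ± SD beside them. NFKB1, NFKB2, RELB, TNFAIP3 and BIRC3 have no overlap between the groups, while REL, RELA, NFKBIA, NFKBIB and NFKBIE do.

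Among the precursor genes, NFKB2 showed the largest difference of the 10. NFKB2 (chr10:102394110-102402524, plus strand) was at 9.14, 8.77 and 8.84 TPM with CsiRNA and at 7.01, 5.50 and 5.91 TPM with NEAT1siRNA. The control libraries lay close together and every NEAT1siRNA library was below them, with a mean of 68.8% of control. The log2 fold change was -0.48 ± 0.10 (SE), the 95% interval ran from -0.68 to -0.28 and the adjusted p was 0.00142 by limma. With no filter on TPM, which adds genes of very low expression to the fit, the adjusted p was 0.0510.

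NFKB1 (chr4:102501330-102617302, plus strand) was at 12.6, 10.9 and 9.94 TPM with CsiRNA and at 8.62, 8.04 and 7.63 TPM with NEAT1siRNA. Every NEAT1siRNA library was again below every control, although the controls were spread more widely than those of NFKB2. The log2 fold change was -0.41 ± 0.10 (95% interval -0.62 to -0.21), with an adjusted p of 0.00564 by limma. Without CsiRNA replicate 1, the highest control, the adjusted p was 0.0557, and with no filter on TPM it was 0.0816.

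RELB, the partner of p52 in the noncanonical arm, also fell. It lies at chr19:45001461-45038192 on the plus strand. RELB was at 6.79, 6.24 and 6.41 TPM with CsiRNA and at 5.22, 5.15 and 4.70 TPM with NEAT1siRNA, with both groups tight and apart. The log2 fold change was -0.31 ± 0.09 (95% interval -0.50 to -0.12), with an adjusted p of 0.0257 by limma. This call was lost when no filter on TPM was used (adjusted p = 0.0815). It was also lost on leaving out any of 3 libraries, namely CsiRNA replicate 1 (0.102), CsiRNA replicate 3 (0.0559) or NEAT1siRNA replicate 3 (0.122).

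The subunits with the transactivation domains of the canonical arm did not pass the test. RELA, which encodes p65 (chr11:65653599-65663090, minus strand), was at 38.9, 35.0 and 38.6 TPM with CsiRNA and at 37.2, 32.0 and 34.2 TPM with NEAT1siRNA. The groups overlapped, and the log2 fold change was -0.12 (95% interval -0.31 to 0.07, adjusted p = 0.438 by limma). REL, which encodes c-Rel (chr2:60881491-60931612, plus strand), was at 4.51, 3.89 and 3.84 TPM with CsiRNA and at 4.06, 4.76 and 3.90 TPM with NEAT1siRNA. Its groups overlapped too, with a log2 fold change of 0.04 (95% interval -0.16 to 0.25, adjusted p = 0.827), and the sign turned to -0.03 without NEAT1siRNA replicate 2, the library with its highest value. For both genes the interval excludes a fall as large as that fitted for NFKB2, although the difference between genes was not itself tested.

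**Figure D2:**
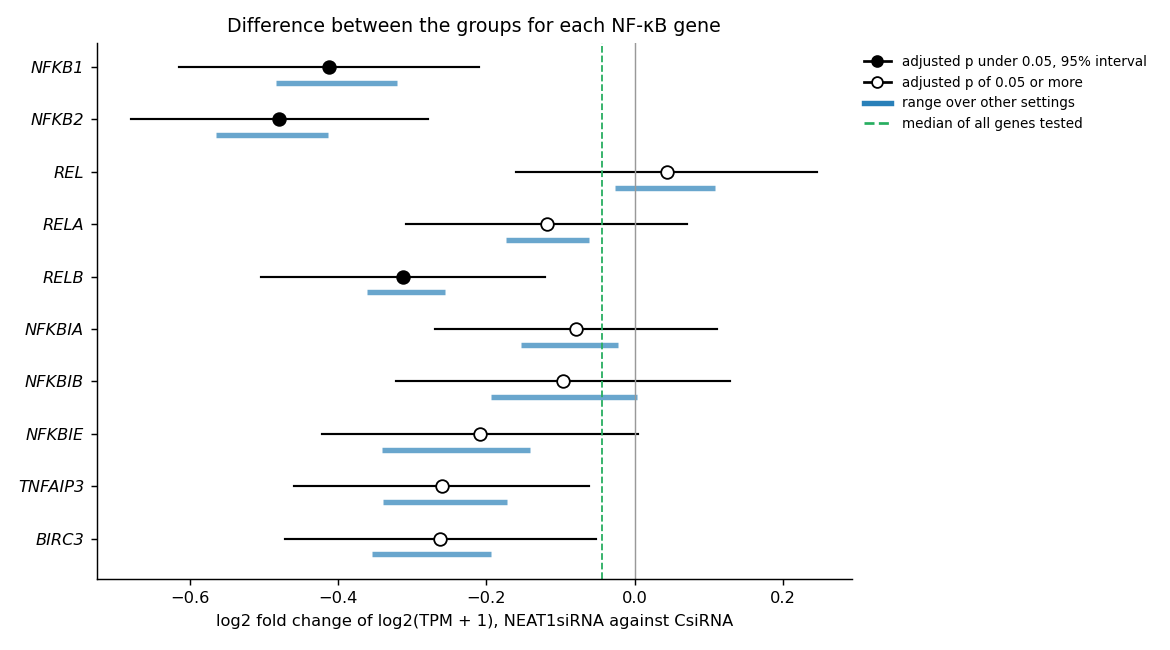
Log2 fold change of log2(TPM + 1), NEAT1siRNA against CsiRNA (horizontal axis), for the 10 genes, with 95% intervals from limma as black lines and the range over the other settings as blue bars. Filled points (NFKB1, NFKB2 and RELB) have an adjusted p under 0.05, and the dashed line is the median of all genes tested, -0.04.

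The IκB genes showed no called change. NFKBIA (chr14:35401079-35404749, minus strand), the classical rapid feedback inhibitor, was at 35.1, 33.7 and 29.3 TPM with CsiRNA and at 31.6, 30.8 and 30.1 TPM with NEAT1siRNA. The NEAT1siRNA values lay inside the range of the controls, with a log2 fold change of -0.08 (95% interval -0.27 to 0.11, adjusted p = 0.633 by limma). NFKBIB (chr19:38899700-38908893, plus strand) was at 5.72, 6.42 and 7.70 TPM with CsiRNA and at 7.09, 6.06 and 5.21 TPM with NEAT1siRNA. The NFKBIB groups overlapped widely (log2 fold change -0.10, 95% interval -0.32 to 0.13, adjusted p = 0.621), and without CsiRNA replicate 3 the difference was 0.0034. NFKBIB overlaps SIRT2, a gene of the opposite strand at up to 14.0 TPM, over 163 bases, and how strand was used in counting is not given in the sources used here. BIRC3, REL, TNFAIP3 and RELA also overlap long noncoding RNA genes, over 11103, 5702, 1020 and 103 bases. None of these RNAs has a value in the expression table. NFKBIE (chr6:44258166-44265788, minus strand) was the lowest of the 10, at 1.76, 1.40 and 1.46 TPM with CsiRNA and at 0.996, 1.44 and 1.16 TPM with NEAT1siRNA. This rests on 53 to 89 recovered reads per library, compared with 1700 to 2350 for RELA. Its log2 fold change was -0.21 (95% interval -0.42 to 0.00, adjusted p = 0.193), so that both no change and a fall as large as that of RELB lie within the interval.

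The ubiquitin enzymes were lower in every NEAT1siRNA library without passing the threshold. TNFAIP3 (chr6:137867214-137883314, plus strand), which encodes A20, a ubiquitin-editing enzyme that shuts off signalling to IKK, was at 3.26, 2.97 and 3.52 TPM with CsiRNA and at 2.75, 2.55 and 2.35 TPM with NEAT1siRNA. The NEAT1siRNA mean was 78.3% of control, with a log2 fold change of -0.26 (95% interval -0.46 to -0.06, adjusted p = 0.0740 by limma), and voom on recovered reads gave an adjusted p of 0.0427. BIRC3 (chr11:102317484-102339403, plus strand) encodes cIAP2, a ubiquitin ligase at TNF receptors that also takes part in the degradation of the kinase NIK. BIRC3 was at 4.15, 3.58 and 3.67 TPM with CsiRNA and at 2.63, 3.55 and 2.87 TPM with NEAT1siRNA, so that the groups were apart only by the narrow gap between the lowest control and NEAT1siRNA replicate 2. Its log2 fold change was -0.26 (95% interval -0.47 to -0.05, adjusted p = 0.0882).

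BIRC3 passed the threshold under 4 of its 17 other settings. Without NEAT1siRNA replicate 2 the adjusted p was 0.0110, with voom it was 0.0274, and after removal from each library of its dependence on transcript GC content and length it was 0.00409 (0.00794 with the replicate number as a block). BIRC3 has the lowest GC content of the 10 transcripts, 35.8%, and RELB the highest, 64.9%. Deviations of each library from the mean of its own group were set against GC content. They fell most with GC content in NEAT1siRNA replicate 2 (Spearman's rho = -0.73 across 10423 genes). They rose most in NEAT1siRNA replicate 1 (0.68). REL, at 38.4% GC, was also highest in NEAT1siRNA replicate 2. The part of GC content in these values was not tested beyond that correction, with which NFKB1, NFKB2 and RELB also passed the threshold.

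**Figure D3:**
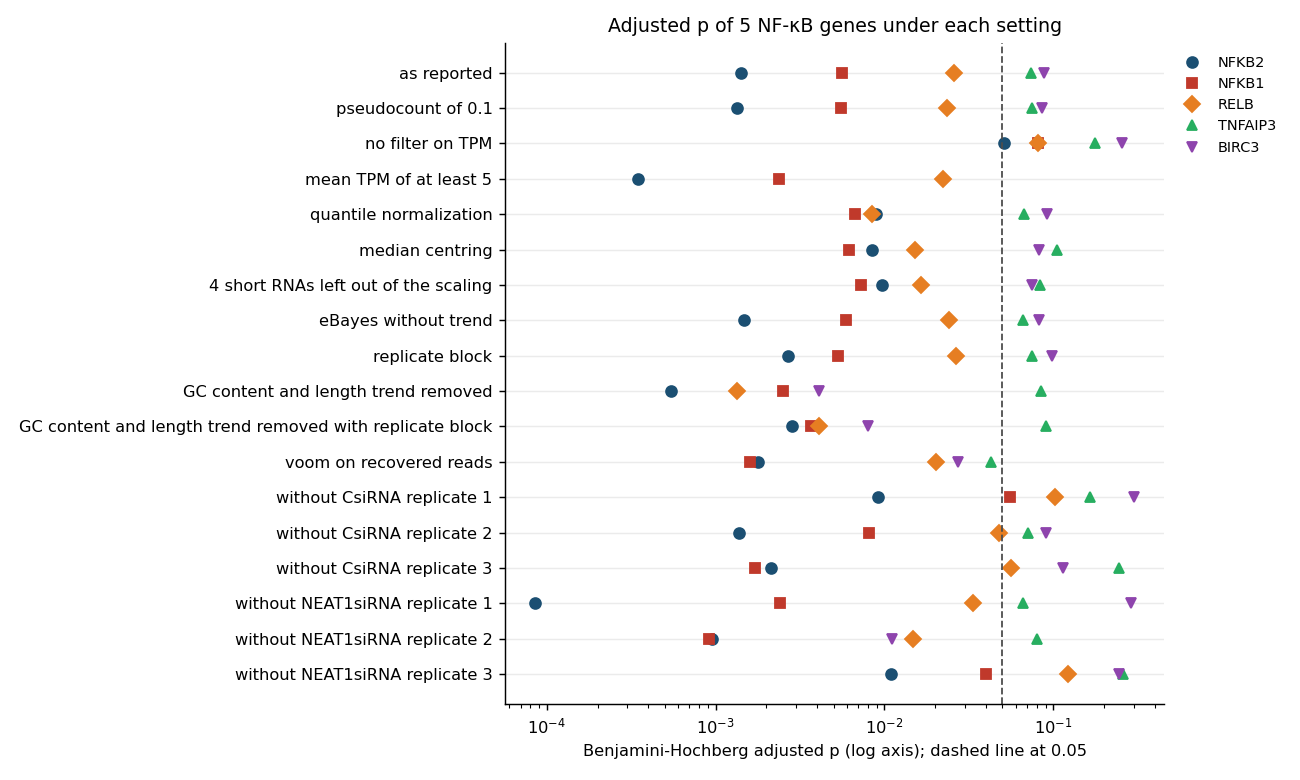
Benjamini-Hochberg adjusted p (log axis) of NFKB2, NFKB1, RELB, TNFAIP3 and BIRC3 for the reported fit and each other setting that changes the fit, with the threshold of 0.05 dashed. NFKB2 crosses the line only with no filter on TPM (0.0510). NFKB1 crosses it there (0.0816) and without CsiRNA replicate 1 (0.0557), and RELB, TNFAIP3 and BIRC3 also lie on both sides of it. A gene has no point where it was not tested.

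The levels of the 10 genes covered a wide range. TPM are scaled by transcript length, so levels of different genes can be set side by side. With CsiRNA the order of mean levels was RELA (37.5 TPM), NFKBIA (32.7), NFKB1 (11.1), NFKB2 (8.91), NFKBIB (6.61), RELB (6.48), REL (4.08), BIRC3 (3.80), TNFAIP3 (3.25) and NFKBIE (1.54). Among neighbours in that order, RELA and NFKBIA overlapped between libraries, as did NFKBIB with RELB and REL with BIRC3. With NEAT1siRNA, RELA (34.5 TPM) lay above NFKBIA (30.8) in every library, and the neighbours that overlapped were NFKB2 (6.14) with NFKBIB (6.12), NFKBIB with RELB (5.03), RELB with REL (4.24), and BIRC3 (3.02) with TNFAIP3 (2.55). RELA was thus the most abundant subunit transcript and NFKBIA by far the most abundant inhibitor transcript in both groups.

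Dividing by RELA of the same library removes any scaling that all genes of a library share. The ratio of NFKB2 to RELA was 0.235, 0.250 and 0.229 with CsiRNA and 0.188, 0.172 and 0.173 with NEAT1siRNA. For NFKB1 the ratio was 0.324, 0.311 and 0.258 against 0.232, 0.251 and 0.223, and for RELB 0.175, 0.178 and 0.166 against 0.140, 0.161 and 0.138. All 3 ratios were lower in every NEAT1siRNA library, although the gap was narrow for NFKB1 and RELB. The ratio of TNFAIP3 to RELA was also lower in every NEAT1siRNA library, whereas the ratios of REL, NFKBIA, NFKBIB, NFKBIE and BIRC3 to RELA overlapped.

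Within the summed TPM of the 5 subunits, RELA made up 54.1, 54.1 and 57.0% with CsiRNA and 59.9, 57.8 and 60.7% with NEAT1siRNA. The share of NFKB1, NFKB2 and RELB together was 39.7, 39.9 and 37.3% with CsiRNA and 33.6, 33.7 and 32.4% with NEAT1siRNA. These 3 genes are the ones called lower in the same libraries, so the fall of their share follows from that choice. The share of RELA was higher in every NEAT1siRNA library, with a narrow gap between 57.0% (CsiRNA) and 57.8% (NEAT1siRNA). The summed IκB transcripts per subunit transcript were 0.592, 0.640 and 0.570 with CsiRNA and 0.639, 0.690 and 0.648 with NEAT1siRNA, with overlap between the groups. RELB per NFKB2 was 0.743, 0.712 and 0.725 with CsiRNA and 0.746, 0.937 and 0.796 with NEAT1siRNA, which is higher in each NEAT1siRNA library by a margin that is very small for replicate 1. With 3 libraries against 3, an exact permutation test cannot go below p = 0.1, so these ratios are given without a test.

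**Figure D4:**
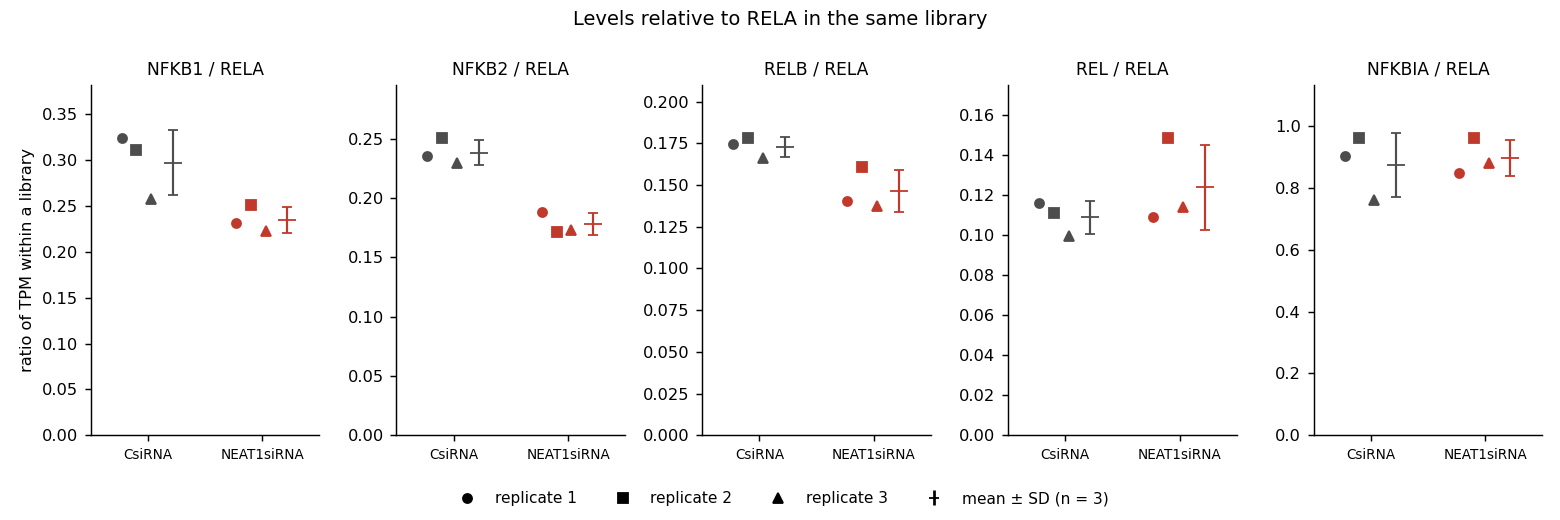
Ratio of TPM to RELA within each library (vertical axes from 0) for NFKB1, NFKB2, RELB, REL and NFKBIA in the CsiRNA (grey) and NEAT1siRNA (red) libraries, with the mean ± SD. The NFKB1, NFKB2 and RELB ratios are lower in all 3 NEAT1siRNA libraries, and those of REL and NFKBIA overlap.

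Across the 6 libraries, the genes whose log2(TPM + 1) was most like that of NFKB2 were MICB (Pearson's r = 0.998), MFSD2A (0.998) and SH2B3 (0.997). These values describe 6 libraries in 2 groups, and so rest largely on the difference between the groups that chose NFKB2.

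Other genes of the pathway were taken from lists by role, which were chosen with earlier results of these data known. Of the 94 genes, 78 were tested, 20 were lower, 4 were higher and 54 were not called. Over all genes tested, 8.98% were called lower and 4.99% higher, and the limma counts of each list below are read beside these shares. The counts at an unadjusted p under 0.05 are read beside 18.2% lower and 9.22% higher of all genes tested. Those by voom are read beside 11.8% lower and 11.6% higher. The 78 genes had a median log2 fold change of -0.05, close to that of all genes tested. The called genes lay mostly among the target genes (11 lower, 1 higher), the adaptors (4 lower, 0 higher) and the receptors (2 lower, 2 higher). None lay among the kinases. The 13 IKK module kinases and their partners, which include IKBKB, CHUK and the noncanonical kinase NIK (MAP3K14), had 0 called lower and 0 higher by limma. At an unadjusted p under 0.05 there was 1 lower (MAP3K14, at 83.3% of control) and 0 higher, and voom called 0 lower and 1 higher (TAB2). The most abundant of these, TAB2, TBK1 and MAP3K7, had log2 fold changes of 0.11, -0.17 and 0.10, and each overlapped between the groups.

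The transcripts of the atypical IκB proteins, which act in the nucleus (NFKBIZ, NFKBID and BCL3 here), moved in different directions. NFKBIZ, which encodes the coactivator IκBζ, was at 12.4, 9.85 and 10.7 TPM with CsiRNA and at 6.79, 7.08 and 5.69 TPM with NEAT1siRNA, a log2 fold change of -0.67 ± 0.10 (adjusted p = 7.02e-05 by limma). This value lies below the 95% intervals of NFKBIA, NFKBIB and NFKBIE. BCL3, which binds p50 and p52 dimers, rose from 19.5, 17.6 and 22.0 TPM to 29.9, 25.9 and 25.1 TPM (log2 fold change 0.44 ± 0.10, adjusted p = 0.00409), with an adjusted p of 0.0839 when no filter on TPM was used. NFKBID was also called lower (-0.38, adjusted p = 0.0371), but its groups overlapped and the call was lost under most of the other settings. They were listed with other IκB-like proteins, and NKIRAS1, NKIRAS2, IBTK and COMMD1 of that list are not atypical IκB proteins. Of the 7 tested genes of the whole list, 2 were lower and 1 was higher by limma. At an unadjusted p under 0.05 there were 2 lower and 2 higher, and voom called 1 lower (NFKBIZ) and 2 higher (BCL3 and NKIRAS1). NKIRAS1 had a log2 fold change of 0.28 (adjusted p = 0.0540 by limma) with no overlap between the groups, and is named after its values were seen. COMMD1, IBTK and NKIRAS2 had log2 fold changes of -0.01, 0.07 and 0.07.

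Of 17 tested adaptors that act next to the receptors, 4 were lower and 0 higher by limma. At an unadjusted p under 0.05 there were 5 lower and 0 higher, and voom called 4 lower and 1 higher (MYD88). TRAF1, a TRAF protein that partners TRAF2, was at 4.60, 4.15 and 4.12 TPM with CsiRNA and at 2.51, 2.40 and 2.39 TPM with NEAT1siRNA (log2 fold change -0.62 ± 0.09, adjusted p = 6.08e-05 by limma). IRAK2, a kinase-like adaptor of IL-1 and Toll-like receptors, fell by 0.51 on the log2 scale (adjusted p = 0.0016, and 0.0804 with no filter on TPM). MALT1, the protease of the CARD-BCL10-MALT1 complex, had a log2 fold change of -0.36 (adjusted p = 0.0154), and this call was lost without CsiRNA replicate 1 (0.109), without NEAT1siRNA replicate 3 (0.120) or when no filter on TPM was used (0.137). TRAF2 was at the threshold (-0.28, adjusted p = 0.0487) and lost its call without any 1 of the libraries except NEAT1siRNA replicate 1, and also with no filter on TPM (0.123). IRAK1, BCL10 and BIRC2, the abundant adaptors that were not called, had log2 fold changes of -0.02, 0.11 and -0.25. BIRC2 encodes cIAP1, the closest relative of the BIRC3 product.

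Of 17 tested proteins that edit or bind ubiquitin chains, 1 was lower and 0 higher by limma. At an unadjusted p under 0.05 there was also 1 higher, RNF11, which voom called. The gene called was TNIP3, which encodes an A20-binding inhibitor, at 2.92, 2.23 and 2.06 TPM with CsiRNA and 1.42, 1.24 and 1.12 TPM with NEAT1siRNA (log2 fold change -0.58 ± 0.11, adjusted p = 0.000453 by limma, and 0.0525 with no filter on TPM). The A20 partners TAX1BP1 and RNF11 had log2 fold changes of 0.08 and 0.30 (adjusted p = 0.626 and 0.0599), and UBE2N had -0.07.

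The receptors split by direction, with 2 lower and 2 higher of the 6 tested. IL1RAP, the accessory chain of the IL-1 receptor, fell by 0.88 on the log2 scale and TNFRSF12A, the TWEAK receptor, by 0.53 (adjusted p = 1.45e-06 and 0.000256 by limma). IL1R1 was higher by 0.54 and TLR3 by 0.40 (adjusted p = 0.000231 and 0.00789), and TLR3 lost its call with no filter on TPM (0.0848). TNFRSF1A, the widely expressed TNF receptor, was the most abundant, at 97.9 to 108 TPM over all 6 libraries with a log2 fold change of 0.06 (adjusted p = 0.709), and LTBR had -0.16 (adjusted p = 0.254).

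The list of target genes outside the 10 held 24 genes, of which 6 had a mean under 1 TPM and were not tested. Of these, TNFAIP2 was higher and BCL2A1 lower with the groups apart, on at most 16 recovered reads per library. Their adjusted p with no filter was 0.0278 and 0.265 by limma, and both were picked after their values were seen. Among the 18 tested target genes, 11 were lower and 1 was higher by limma, compared with 8.98% and 4.99% of all genes tested. Their median log2 fold change was -0.41. At an unadjusted p under 0.05 there were 13 lower and 1 higher, compared with 18.2% and 9.22% of all genes tested. Voom called 13 lower, BCL2L1 among them, and 2 higher, CSF1 and SDC4, compared with 11.8% and 11.6% of all genes tested. The 11 lower by limma were the chemokines CXCL8, CXCL1, CXCL2, CXCL3 and CCL2, the cytokines IL6 and LIF, and ICAM1, IER3, PLAU and GADD45B. Their log2 fold changes ran from -1.29 for CXCL8 to -0.37 for IL6 and GADD45B. CXCL1, CXCL2 and CXCL3 share sequence, so reads may be split among them. CSF1 was higher by 0.45 (adjusted p = 0.00161 by limma). SDC4, SOD2 and BCL2L1 had log2 fold changes of 0.16, -0.18 and -0.27 (adjusted p = 0.227, 0.280 and 0.0527 by limma). The median of the targets was of about the size of the values for NFKB1 and NFKB2.

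**Figure D5:**
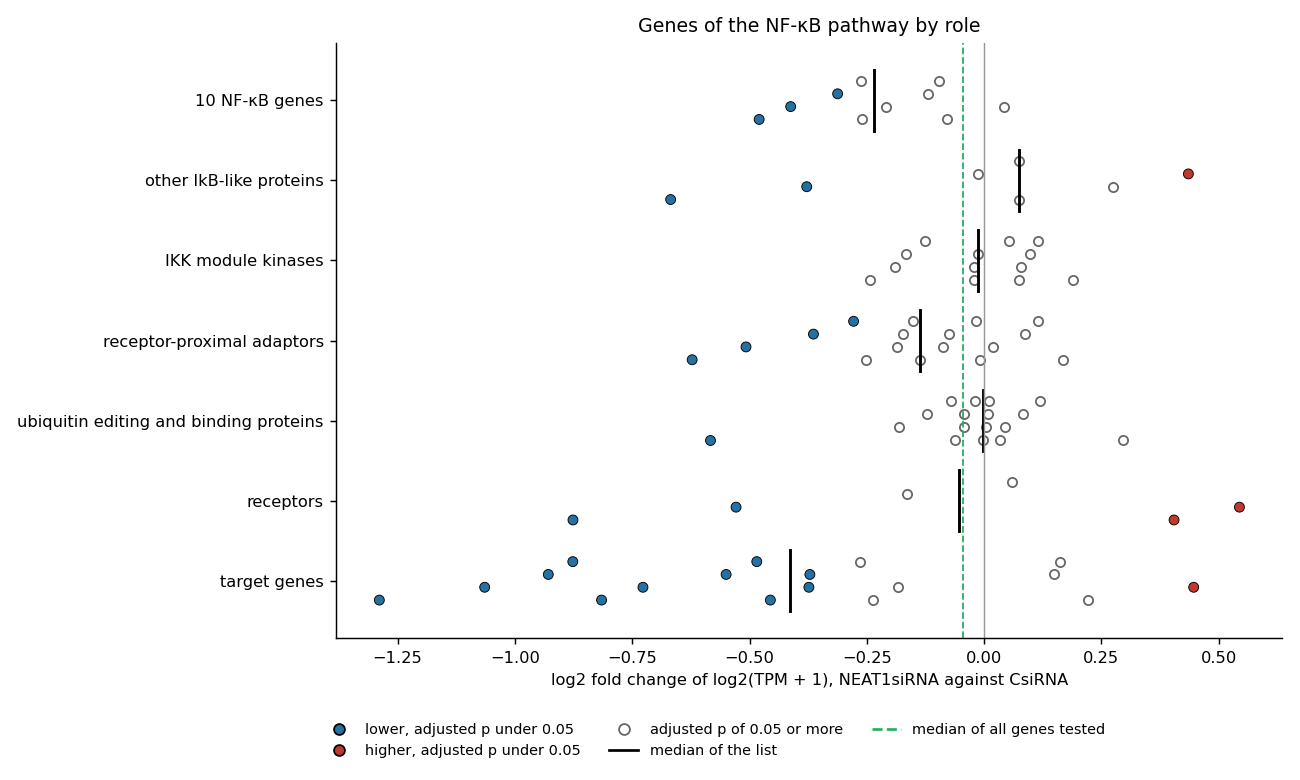
Log2 fold change of log2(TPM + 1), NEAT1siRNA against CsiRNA (horizontal axis), of each tested gene in the 10 NF-κB genes and 6 lists of other pathway genes. Blue points are lower and red points higher at an adjusted p under 0.05, open points are not called, black bars are list medians and the dashed line is the median of all genes tested. The kinase list has 0 called genes, and the target list has 11 lower and 1 higher.

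Of the 24 other pathway genes called, 16 were called under all 18 other settings in which they were tested, and 0 turned direction. The 8 others were NFKBID, BCL3, TRAF2, IRAK2, MALT1, TNIP3, TLR3 and IL6. IL6 lost its call with no filter on TPM (adjusted p = 0.0690), without CsiRNA replicate 1 (0.0644) or without NEAT1siRNA replicate 3 (0.0523). Another scaling moved the number of rises more than that of falls. Over all genes tested 963 were lower and 535 higher by TPM as deposited, whereas with the median of each library set equal 954 were lower and 1158 higher, and with quantile normalization 1109 and 1082. Under both of these scalings the 10 genes still had 3 lower and 0 higher.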

How the data were processed

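RNA-seq was analysed for 6 libraries of BT-549 cells, grouped by their labels. Libraries were TruSeq Stranded mRNA. The authors aligned reads to GRCh38 with STAR and used DESeq2, per the study's methods. The counting tool and its strand setting are not given in the sources used here. The deposited table gives TPM per gene and library. The authors' comparison table also holds a mean normalized count per gene, a signal over all libraries, and the authors' own fold changes and p-values; of these only the mean signal was used.

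TPM were tested as log2(TPM + 1) in genes that averaged 1 TPM or more, by limma 3.58.1 under R 4.3.3 (linear fit, moderated variances with an intensity trend), and p-values were adjusted by Benjamini-Hochberg over 10721 genes. Tables and plots were made under Python 3.11.15 (pandas 2.3.3, numpy 2.4.6, matplotlib 3.10.9, scipy 1.17.1). Reads were recovered by joining the TPM with the mean normalized signal. Of values of genes under 5 in that signal 99.8% came within 0.05 of a whole number, but of genes at 500 or more only 13.5%, so reads of abundant genes are approximate. Coordinates, GC content and overlaps came from the reference annotation of GRCh38 by symbol, where 22278 symbols matched, 779 matched through an older symbol and 2488 did not.

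The 10 genes and the lists were chosen with earlier results of these data known. Named were the 10, NEAT1, in each list the called genes and up to 3 more of highest mean TPM, and the 3 genes most correlated with the member of lowest adjusted p. Kinases named without values were named for their roles. Alternatives were a pseudocount of 0.1, no filter, a minimum of 5 TPM, quantile normalization, median centring, 4 very abundant short RNAs left out of the scaling, moderation with no trend, a block for the replicate number, removal of a GC and length trend (splines, 4 degrees of freedom) with and without that block, voom on recovered reads, a threshold of 0.01 and each library left out.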

Additional observations from a re-analysis of the deposited data

How the results depend on the processing

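The number of the 10 NF-κB genes called lower was 3 as reported. It was 0 with no filter on TPM, where 18531 genes entered the fit, 5 with voom on recovered reads, and between 1 and 4 when each library was left out in turn, with the lowest value without CsiRNA replicate 1. The number called higher was 0 under every alternative run. Among the other pathway genes, those called higher numbered 4 as reported, 8 with quantile normalization, 8 with median centring, 7 with the 4 short RNAs left out of the scaling, 13 with the GC and length trend removed, 13 with that trend removed and the replicate block, 9 with voom, and between 4 and 7 with each library left out. Over all genes tested, those called higher also differed, with 535 as reported, 1082 with quantile normalization and 1158 with median centring (of 10721). They numbered 940 of 12252 with the short RNAs left out, and 1244 of 10721 with voom. With the GC and length trend removed they were 1704 of 10423, or 1684 with the block. With each library left out they ran from 391 to 538. The cause of these differences was not tested. Those called lower stayed within 1.5 times of 20.

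With the replicate block, 3 of the 10 genes were lower, and 20 other pathway genes were lower and 5 higher. Same-numbered libraries had deviations that correlated by -0.11 to 0.25, and 2 of 6 libraries correlated best with their own number, so the numbers were not taken as pairs. Leaving out 1 library at a time, the log2 fold change ran from -0.19 to 0.0034 for NFKBIB and from -0.026 to 0.10 for REL, so neither has a settled direction.

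Over all genes tested, 963 were called lower and 535 higher as reported, 1764 and 1704 with the GC and length trend removed, 1261 and 1244 with voom, 263 and 242 with no filter, and 422 and 410 without NEAT1siRNA replicate 3. The 4 short RNAs held 64.4 to 68.1% of all TPM, so the scale of every other gene depends on them. Depth limits NFKBIE most, with 53 to 89 recovered reads.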

Other observations

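In the receptor list, 7 of 13 genes had a mean under 1 TPM and were not tested. TNFRSF1B, which encodes the TNF receptor that binds TRAF2 directly, was at 0.452, 0.527 and 0.533 TPM with CsiRNA and at 1.12, 1.37 and 1.06 TPM with NEAT1siRNA. The groups were apart, and in the fit with no filter on TPM the log2 fold change was 0.54 with an adjusted p of 0.0202 from limma. TNFRSF11A, the receptor for RANKL, was at 0.258, 0.255 and 0.262 TPM with CsiRNA and at 0.180, 0.170 and 0.182 TPM with NEAT1siRNA (-0.10, adjusted p = 0.0566). TLR4 was at 0 in all 6 libraries. TNFRSF1B and TNFRSF11A were picked after their values were seen.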
